A study of Homo sapiens with 14 samples.

Results

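Of the 875 HSF2 peaks deposited for non-treated cycling K562 cells, 533 overlapped no peak of the IgG library from the same cells, and these 533 regions are the basal HSF2 peaks described here. Beyond the authors' peak calls, made at a p-value cutoff of 1e-05, they were chosen by position alone. A shared stretch of at least 1 bp with a non-treated cycling IgG peak removed the other 342 peaks. No further minimum of fold or p-value was set. The 12 antibody lists of the series hold 117699 peaks in all. Because the HSF2 level of these regions in non-treated cycling cells chose them, that level is given as a description and carries no test.

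K562 is a human erythroleukemia cell line, grown at 37 °C. Chromatin immunoprecipitation and sequencing was done with 3 antibodies, against HSF2, against HSF1 and non-specific IgG, in 4 conditions: heat-treated cycling cells (30 min at 42 °C), non-treated cycling cells, heat-treated cells arrested in mitosis, and non-treated cells arrested in mitosis. Each library came from 10 pooled immunoprecipitations, and each group has 1 library. There is therefore no spread between replicates, no condition was tested against another, and every interval below covers counting error only. The 2 input libraries, 1 per cell state, are both labelled as heat-treated and were the control of the non-treated lists as well. Peak lists give no marker of cell identity or of mitosis, so the labels of line and cell state were not checked here.

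HSF1 and HSF2 are related transcription factors that bind, as trimers, to heat shock elements, which are repeated inverted copies of a short nGAAn unit. HSF1 is the main activator of chaperone genes upon heat. HSF2 is better known for roles in development and differentiation, can form mixed trimers with HSF1, and is found on some targets of HSF1 in stressed cells. Binding of HSF2 in unstressed cells is thus a starting state from which gain or loss upon heat or in mitosis can be described. Positions are given in build hg19, by coordinates only, since gene annotation and sequence of that build were not used here.

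The own library of the basal peaks had the most kept tags of the 12 antibody libraries, 28676943. The other HSF2 libraries had 19476014 kept tags after heat in cycling cells, 28299989 after heat in mitotic cells and 14782391 in non-treated mitotic cells. The HSF1 libraries ranged from 6164898 to 16735990 kept tags. The removing IgG library had 14761560 kept tags, and its list held 15758 peaks. Per the file headers, that list was made in another way than the HSF2 list it filters. Of the IgG tags 69.1% were kept and the input had 36542527 kept tags, against 100% and 34815679 for the HSF2 list, and the IgG alignment alone among the cycling lists lacks the bwa name. The effect of this on the choice of the 533 was not tested. Levels are given as CPM, tags inside the deposited peak per 1000000 kept tags, and a region without a listed peak has an unknown level and not a level of 0.

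The basal peaks were mostly short and weak. Their length had a median of 774 bp (454 to 7422 bp), their tag count a median of 25 (17 to 1664), and their level a median of 0.872 CPM (0.593 to 58.0 CPM). The median density was 1.18 CPM per kb of peak, where kept tags spread evenly over the effective genome size would give 0.370 CPM per kb. The deposited fold over input had a median of 4.27 (1.98 to 20.16). It was at least 10 in 5 of 533 regions, at least 5 in 117 and below 3 in 72. The deposited false discovery rate was at most 5% in 1 of the 533 and at least 15% in 531, with a median of 21.65%. The 342 removed peaks were longer and had more tags at a lower fold, with medians of 2425 bp, 4.10 CPM and a fold of 2.92. Only 45 of the 533 basal peaks were longer than 2000 bp, against 196 of the 342 removed peaks.

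At the edge of the rule, the 3 basal peaks closest to an IgG peak lay 13 bp (chr4:9342407-9344127), 48 bp (chr7:139594093-139595647) and 60 bp (chr5:16746288-16746906) from it. The 3 removed peaks with the smallest overlap shared 3 bp (chr22:21733505-21734920), 3 bp (chr7:131596271-131596905) and 13 bp (chr1:53749382-53750314) with one. The 3 basal peaks had 2.20, 2.23 and 0.663 CPM of HSF2, and the 3 removed peaks 2.34, 0.802 and 1.33 CPM. Across all basal peaks the median gap to the nearest non-treated cycling IgG peak was 18150 bp, and the gap was within 1000 bp for 43 of them.

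The strongest basal peak by fold was chr11:122932409-122933542, with 77 tags, 2.69 CPM and a fold of 20.16. It was followed by chr2:198364246-198365320 with 64 tags and a fold of 17.84, chr1:14825195-14826476 with 120 tags and a fold of 16.59, chr22:41252279-41253240 with 63 tags and a fold of 16.29, and chr4:152950678-152951735 with 66 tags and a fold of 12.06. The 5 did not share a pattern. Those on chromosomes 11, 2 and 22 had peaks of HSF1 and HSF2 after heat, whereas those on chromosomes 1 and 4 had a further peak in non-treated mitotic HSF2 only, at 1.01 and 1.83 CPM. None of the 5 had a peak in any IgG list. The other 5 of the 10 highest folds lay between 8.53 and 9.31, and 4 of these 5 had peaks of both factors after heat in cycling cells.

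Among these 4, chr17:16283619-16284518 had HSF2 at 2.93 CPM in heat-treated cycling and 1.15 CPM in non-treated cycling cells, and HSF1 at 5.08 CPM after heat in cycling and 2.57 CPM after heat in mitotic cells. At chr6:160210353-160211467, HSF2 had 6.16 CPM in heat-treated cycling and 1.81 CPM in non-treated cycling cells, and HSF1 had 9.44 CPM in heat-treated cycling and 1.18 CPM in non-treated cycling cells. At chr13:34116781-34117537, HSF2 had 2.11 CPM in heat-treated cycling and 1.395 CPM in non-treated cycling cells, a ratio of 1.51 whose interval of 0.952 to 2.39 included 1. The ratios on chromosomes 17 and 6 were 2.54 and 3.40, with lower interval bounds of 1.63 and 2.43.

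In each other library, a minority of the basal peaks had a listed peak. In HSF2 lists, a peak overlapped 86 of 533 (16.1%, Wilson 95% interval 13.3 to 19.5%) after heat in cycling cells, 97 (18.2%) after heat in mitotic cells and 128 (24.0%) in non-treated mitotic cells. The same shares over the whole list of 875 were 29.7%, 33.4% and 44.8%, so each share of the basal peaks lay below that of the list they came from. In HSF1 lists, a peak overlapped 104 (19.5%; 34.9% of the whole list) after heat in cycling cells and 93 (17.4%; 39%) in non-treated cycling cells. In mitosis the HSF1 counts were 100 (18.8%; 39.8%) after heat and 67 (12.6%; 36.1%) without heat.

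IgG peaks were also listed at these regions. A peak of IgG overlapped 73 basal peaks (13.7%; 33.1% of the whole list) in heat-treated cycling cells, 132 (24.8%; 43.8%) in heat-treated mitotic cells and 19 (3.57%; 15.9%) in non-treated mitotic cells. The list with the most peaks at basal HSF2 regions was thus an IgG list, which is also the longest list of the series with 41184 peaks. Altogether 163 of the 533 had a peak in at least 1 of these 3 IgG lists and 370 had none. Results below are given for all 533 and, where they rest on IgG-free regions, for these 370 as well. The part of non-specific signal in any single overlap was not tested.

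**Figure D1:**
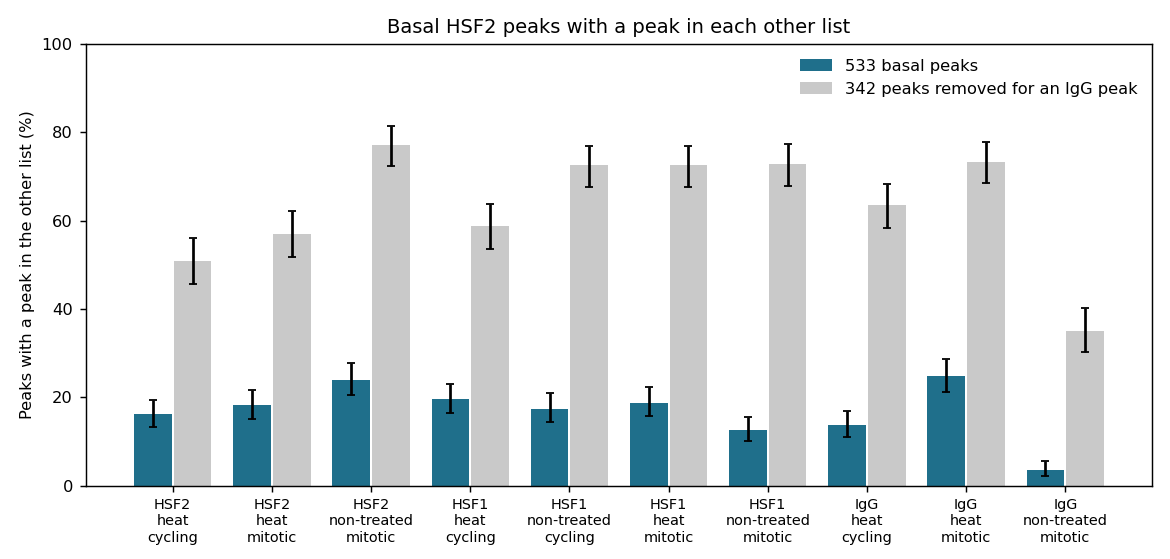
Share of peaks (%, vertical axis) of the non-treated cycling HSF2 list that overlap a peak in each of 10 other lists, for the 533 basal peaks (left bars) and the 342 peaks removed for an IgG overlap (right bars), with Wilson 95% intervals. The basal peaks lie between 3.57% and 24.8% and the removed peaks between 35.1% and 77.2%.

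Of the 533, 269 (50.5%) had no peak in any other list. Among the 342 removed peaks, 20 (5.85%) had none in the 10 lists besides the removing IgG list. The 269 had medians of 0.732 CPM, 674 bp and a fold of 4.29. Another 77 basal peaks recurred in 1 other list, 112 in 2 to 4 and 75 in 5 or more. The same counts for the removed peaks were 13, 48 and 261. The 5 with the highest fold among the 269 were chr22:47986796-47987805 (39 tags, fold 8.53), chr7:109636652-109637703 (44 tags, 8.42), chr20:58614193-58614819 (26 tags, 7.37), chr8:137196891-137197779 (25 tags, 6.98) and chr19:54729049-54729992 (32 tags, 6.47). Their levels, from 0.872 to 1.53 CPM, all exceeded the smallest peak of the heat-treated cycling HSF2 list, 0.719 CPM.

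Depth limits what an absence means. In 131 of the 533 the basal level lay below 0.719 CPM, and 7 of those 131 had an HSF2 peak after heat in cycling cells, against 79 of the 402 at or above it (19.7%). The shallow mitotic HSF1 libraries listed no peak below 1.22 CPM after heat and 1.30 CPM without heat, which exceeded the basal level of 359 and 382 of the 533.

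After heat in cycling cells, HSF2 was higher at 42 of the 86 basal peaks listed in both libraries, by a ratio of CPM of at least 1.5. This is 7.88% of the 533, near the 8.69% of the whole list of 875 that met the call, so the count itself is no result about the basal peaks. It was within the limits at 29. It was lower, by a ratio of at most 0.667, at 15, 2.81% of the 533 against 5.71% of the whole list. The remaining 447 had no HSF2 peak after heat, and regions with a peak only after heat could not enter by the rule. The median ratio over the 86 was 1.46, from 0.363 to 13.9, with median levels of 2.46 CPM after heat and 1.52 CPM without heat. The counting interval of the ratio excluded 1 for 42 higher and 12 lower regions. Per kb of peak, 39 were higher and 0 lower. At the 15 lower regions the peaks had a median length of 877 bp after heat and 1843 bp without heat, so none of the 15 lower calls held on the density scale. In the 370 IgG-free regions, 25 were higher, 10 within the limits and 5 lower.

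The regions higher after heat had a median length of 869.5 bp, against 986 bp for those within the limits, 1843 bp for lower ones and 739 bp for those with no HSF2 peak after heat. Their basal fold had a median of 5.46 and was at least 5 in 29 of 42, against 79 of the 447 regions with no HSF2 peak after heat. The summits of both HSF2 peaks lay within 100 bp of each other in 38 of the 42, with a median of 23 bp, against 13 of 29 within the limits (105 bp) and 2 of 15 lower ones (527 bp). By basal fold, the highest group of 133 (fold 4.74 to 20.16) had 39 regions with an HSF2 peak after heat, 30 of them higher. The next group of 133 (fold 4.27 to 4.71) had 14, with 9 of them higher. The group of 133 below it (fold 3.53 to 4.27) had 10, with 1 of them higher. The lowest group of 134 (fold 1.98 to 3.53) had 23, more than either group between, and 2 of them were higher. The lower regions had a median fold of 3.06, and 7 of the 15 were longer than 2000 bp.

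**Figure D2:**
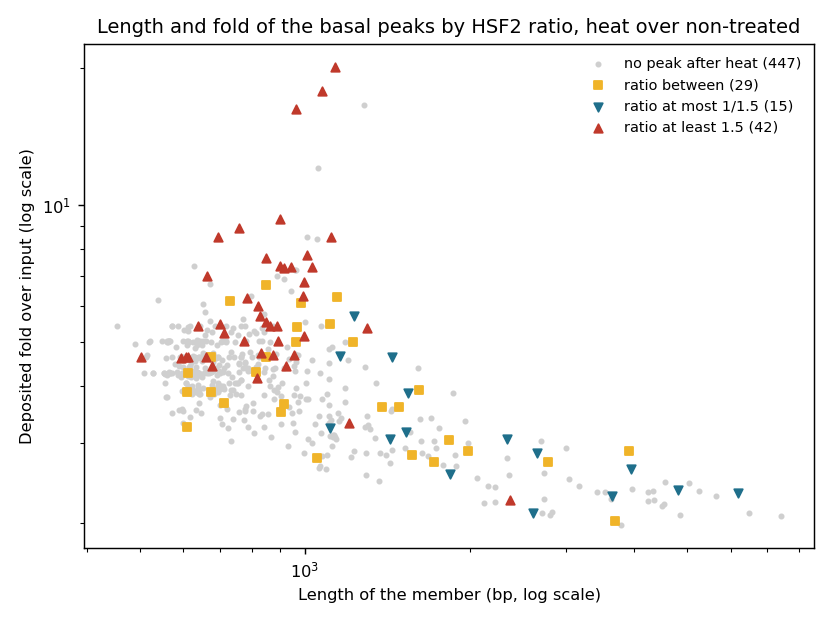
Length (bp, horizontal, log scale) and deposited fold over input (vertical, log scale) of the 533 basal peaks, each point 1 region, by the ratio of HSF2 CPM in heat-treated over non-treated cycling cells. The 42 regions higher after heat have a median length of 869.5 bp and fold of 5.46, the 15 lower ones 1843 bp and 3.06.

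HSF1 accompanied HSF2 at nearly all of the regions higher after heat. An HSF1 peak of heat-treated cycling cells overlapped 41 of the 42, against 12 of 29 regions within the limits, 8 of 15 lower ones and 43 of 447 with no HSF2 peak after heat. HSF1 was listed at 15 of the 42 in non-treated cycling cells. Heat-treated cycling IgG had a peak at 8 of the 42, 14 of the 29, 5 of the 15 and 46 of the 447. In the 42, the HSF1 level after heat had a median of 4.36 CPM (0.837 to 51.4 CPM), and its summit lay within 100 bp of the basal HSF2 summit in 38. These counts compare libraries that share the basal list, and no overlap was tested.

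**Figure D3:**
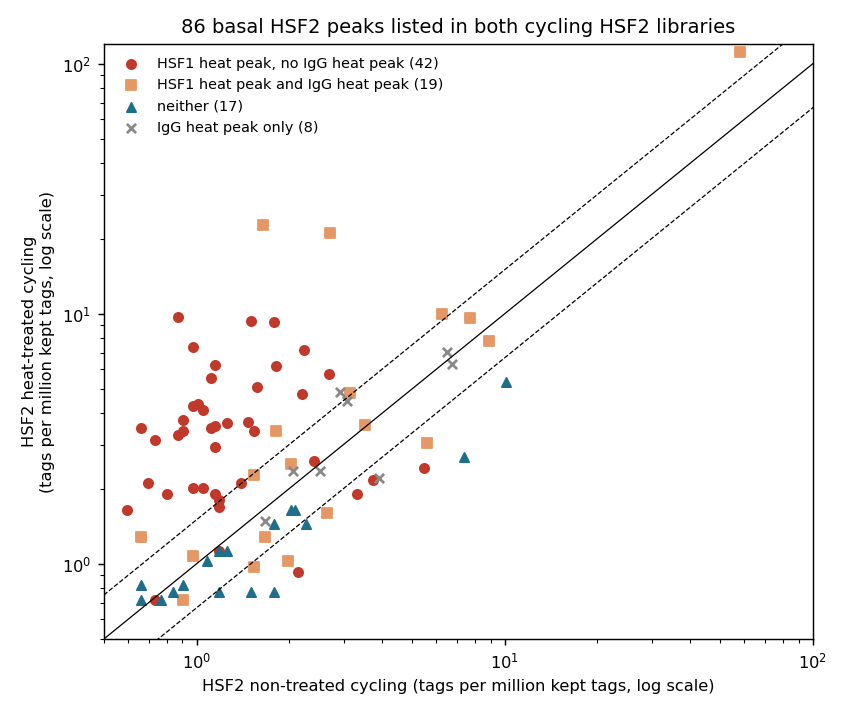
HSF2 level (tags per 1000000 kept tags, log scales) in heat-treated (vertical) and non-treated (horizontal) cycling cells for the 86 basal peaks listed in both, each point 1 region, marked by HSF1 and IgG peaks of heat-treated cycling cells; the solid line is equality and the broken lines are ratios of 1.5 and 0.667. Nearly all points above the upper broken line have an HSF1 peak (41 of 42).

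The highest ratio belonged to chr6:31782688-31783684, where HSF2 had 22.7 CPM after heat and 1.64 CPM without heat, a ratio of 13.9 (95% interval 10.3 to 19.2). HSF2 peaks there covered 5336 bp after heat and 997 bp without heat, and the ratio per kb of peak was 2.59. HSF1 at this region had 32.1 CPM in heat-treated cycling cells and 1.87 CPM in non-treated cycling cells. In mitotic cells HSF2 had 5.48 CPM after heat and 3.92 CPM without heat, and HSF1 had 17.1 CPM after heat and 1.95 CPM without heat. IgG had 4.81 CPM in heat-treated cycling and 4.62 CPM in heat-treated mitotic cells. Both factors were highest in heat-treated cycling cells here. A close neighbour, chr6:31794844-31796143, had 21.0 CPM of HSF2 after heat and 2.72 CPM without heat (ratio 7.72, 6.05 to 9.97), and HSF1 had 35.9 CPM after heat and 3.25 CPM without heat. Its mitotic HSF1 levels were 22.2 CPM after heat and 5.52 CPM without heat, and its mitotic HSF2 levels 7.24 CPM after heat and 2.64 CPM without heat. IgG was listed there too, at 5.42 CPM in heat-treated cycling and 4.84 CPM in heat-treated mitotic cells.

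The second highest ratio was free of IgG peaks. At chr19:5864952-5865815, HSF2 had 9.70 CPM after heat and 0.872 CPM without heat (ratio 11.1, 7.31 to 17.6), HSF1 had 12.5 CPM after heat and no listed peak without heat, and the only mitotic peak was HSF1 after heat, at 3.39 CPM. The summit of the heat-treated HSF2 peak, which was 2314 bp long, lay 1135 bp from the basal summit and so outside the basal region of 864 bp, and that of HSF1 lay 1141 bp away. This region is thus an exception to the near summits of the regions higher after heat, and its ratio does not set levels at 1 position against each other. The region chr16:89050356-89051250 had 7.39 CPM of HSF2 after heat and 0.976 CPM without heat (ratio 7.57, 5.03 to 11.8), with 10.3 CPM of HSF1 after heat. At chr6:44215019-44216015 HSF2 had 9.40 CPM after heat and 1.499 CPM without heat (ratio 6.27, 4.47 to 8.95), and IgG of heat-treated mitotic cells had 1.72 CPM there, with mitotic HSF2 after heat at 1.31 CPM. All 3 lacked an HSF1 peak in non-treated cycling cells.

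The next 5 ratios ran from 5.399 to 4.36. The region chr19:18740374-18741295 had 6.21 CPM of HSF2 after heat and 1.15 CPM without heat, chr19:54692016-54692610 had 3.49 CPM after heat and 0.663 CPM without heat, and chr11:287000-288028 had 9.29 CPM after heat and 1.78 CPM without heat. The remaining regions were chr19:1354126-1354820, with 5.55 CPM after heat and 1.12 CPM without heat, and chr7:26240083-26240902, with 4.26 CPM after heat and 0.976 CPM without heat. Of these 5, the regions on chromosome 11 and at chr19:1354126-1354820 had IgG of heat-treated mitotic cells, at 0.779 and 0.723 CPM. All 10 had HSF1 peaks in both heat-treated libraries, cycling and mitotic. Per kb of peak the 10 ratios lay between 2.39 and 4.42.

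**Figure D4:**
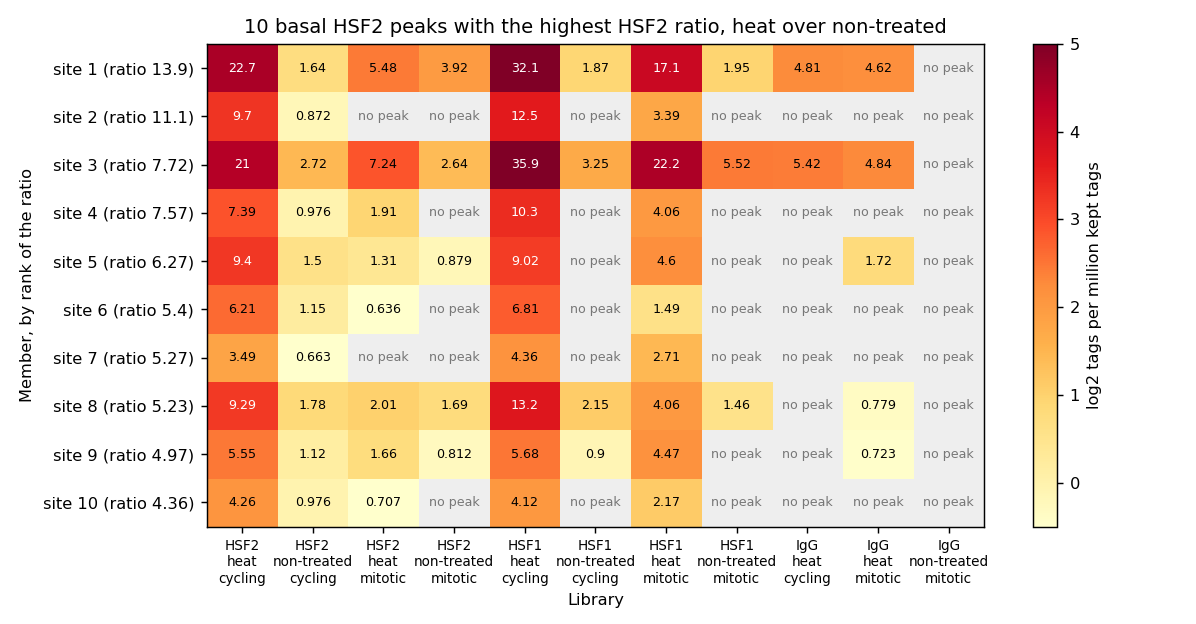
Tags per 1000000 kept tags in 11 libraries (columns) at the 10 basal peaks with the highest ratio of HSF2 in heat-treated over non-treated cycling cells (rows, by rank), on a log2 colour scale with each value printed; grey marks a library with no listed peak. All 10 have HSF1 peaks in heat-treated cycling cells (4.12 to 35.9 CPM) and in heat-treated mitotic cells (1.49 to 22.2 CPM).

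The regions of the 5 lowest ratios were 1232 to 4812 bp long in non-treated cells, with folds from 2.30 to 5.71. At chr22:20263647-20268458 HSF2 of cycling cells had 2.67 CPM after heat and 7.36 CPM without heat (ratio 0.363, 0.263 to 0.494). In heat-treated mitotic cells, IgG had 33.4 CPM there over 12175 bp of peak and HSF2 23.5 CPM over 11978 bp. Per kb of peak these levels were 2.75 and 1.96 CPM, and no IgG peak of cycling cells was listed there. Next came chr17:34755861-34757302, with 0.770 CPM after heat and 1.78 CPM without heat, and chr22:16621579-16623119, with 0.924 CPM after heat and 2.13 CPM without heat. At chr22:18812016-18815662 the levels were 2.41 CPM after heat and 5.47 CPM without heat, and at chr19:2280957-2282188 they were 0.770 CPM after heat and 1.499 CPM without heat. Per kb of peak all 5 ratios lay between 1.04 and 1.20.

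Both HSF1 and HSF2 had a peak after heat in cycling cells at 61 of the 533 basal regions, HSF2 alone at 25, HSF1 alone at 43 and neither at 404. Where both were listed, HSF1 had a median of 3.59 CPM and HSF2 3.39 CPM. HSF1 over HSF2 was higher by at least 1.5 at 18 of the 61, 3.38% of the 533 against 4.23% of the whole list. It was lower at 5 of the 533, against 3.31% of the whole list. The 43 regions with HSF1 alone had a median of 1.73 CPM of HSF1, a basal fold of 3.39 and an IgG peak of heat-treated cycling cells at 19. The 61 with both had IgG at 19 and a basal fold of 5.04.

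HSF1 itself had peaks in both cycling libraries at 48 basal regions, in heat-treated cells only at 56, in non-treated cells only at 45 and in neither at 384. Among the 48, HSF1 was higher after heat at 15, 2.81% of the 533 against 4.91% of the whole list. It was lower at 5 of the 533, against 4.69% of the whole list. The median ratio over the 48 was 1.06, and per kb of peak the counts were 9 and 3. The top ratio was 17.2, at chr6:31782688-31783684, and it was 3.94 per kb of peak. HSF1 peaks there covered 3856 bp after heat and 884 bp without heat. In the IgG-free regions 10 were listed in both, 4 of them higher and 0 lower. In non-treated cycling cells, both factors were listed at 93 regions, with a median ratio of HSF1 over HSF2 of 0.919. HSF1 over HSF2 was higher at 8 of the 533, against 5.6% of the whole list. It was lower at 20 of the 533, against 9.14% of the whole list.

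The summits of basal HSF2 peaks lay closest to those of heat-treated cycling HSF peaks. The distance was within 100 bp at 53 of 86 regions for HSF2 after heat (61.6%, 51.1 to 71.2%) and at 58 of 104 for HSF1 after heat (55.8%, 46.2 to 64.9%), with medians of 41.5 and 78.5 bp. It was within 100 bp at 38 of 93 for HSF1 in non-treated cycling cells (40.9%) and at 46 of 128 for HSF2 in non-treated mitotic cells (35.9%). For IgG it was 30 of 73 in heat-treated cycling cells (41.1%, 30.5 to 52.6%) and 24 of 132 in heat-treated mitotic cells (18.2%, 12.5 to 25.6%), with a median distance of 427 bp for mitotic IgG. The list with the most overlaps thus had the lowest share of near summits among these 6 lists.

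**Figure D5:**
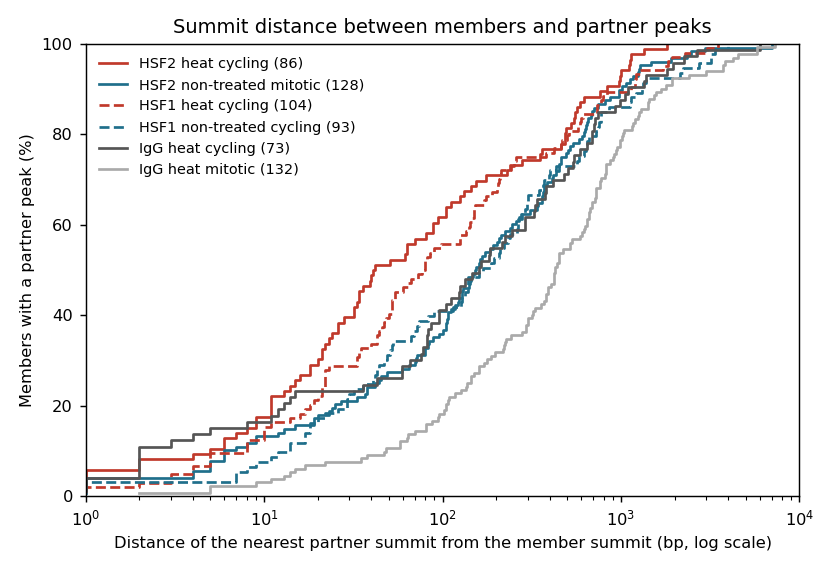
Cumulative share (%, vertical) of basal HSF2 peaks with a partner peak by distance between the summits (bp, horizontal, log scale; 0 is drawn at 1), 1 line per list, with the number of regions in the legend. At 100 bp the HSF2 heat-treated cycling line stands at 61.6% and the IgG heat-treated mitotic line at 18.2%.

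In mitotic cells without heat, 128 of the basal peaks had an HSF2 peak. The level was higher in mitotic than in cycling cells at 32 of the 533, a smaller share than the 19.3% of the whole list. It was lower at 21 of the 533, also a smaller share than the 6.97% of the whole list. It was within the limits at 75, and the median ratio over the 128 was 1.17. In the 370 IgG-free regions 4 were higher, 24 within and 10 lower, and the median ratio was 0.907. Per kb of peak 26 of the 128 were higher and 1 lower, while per 1000000 total tags the balance turned to 18 higher and 34 lower. Of the non-treated mitotic HSF2 tags 79.8% were kept. HSF1 in non-treated cells was listed in both cell states at 43 basal regions. Of these, 7 were higher in mitosis, 1.31% of the 533 against 9.6% of the whole list. Another 13 of the 533 were lower, against 8.23% of the whole list. Per kb of peak, 8 were higher and 1 lower.

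After heat, mitotic HSF2 levels lay below cycling ones more often than above them at the 45 basal peaks listed in both libraries. HSF2 was listed in both heat-treated libraries at 45 regions. The mitotic level was lower at 25 of the 533, against 3.09% of the whole list. It was higher at 8 of the 533, against 8.57% of the whole list, and within the limits at 12. The median ratio was 0.470, with median levels of 1.91 CPM in mitotic cells and 3.70 CPM in cycling cells. Per kb of peak 27 were lower and 0 higher. In the IgG-free regions 13 of 15 were lower and 2 higher, with a median ratio of 0.275. For HSF1, 57 regions were listed in both, 43 in mitotic cells only and 47 in cycling cells only. The median ratio over the 57 was 0.787. The mitotic level was lower at 24 of the 533, against 6.06% of the whole list, and higher at 13, 2.44% of the 533 against 12.2%. In the IgG-free regions 15 of 21 were lower and 0 higher. Per kb of peak the HSF1 counts were equal, 13 higher and 13 lower. Mitotic and cycling lists also differ in the naming of their alignments and in the share of tags kept, and cell state and this difference cannot be told apart.

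Within mitotic cells, no direction of HSF2 after heat held on both scales. The factor was listed with and without heat at 70 basal regions, with a median ratio of 1.00. Its level was higher after heat at 17, 3.19% of the 533 against 7.09% of the whole list. It was lower at 10 of the 533, against 4.91% of the whole list, whereas per kb of peak 0 were higher and 13 lower. Mitotic HSF1 was listed in both at 54, with a median ratio of 1.22. Its level was higher after heat at 19, 3.56% of the 533 against 9.71% of the whole list. It was lower at 3 of the 533, against 3.31% of the whole list, and per kb of peak 6 were higher and 2 lower. Another 46 regions had mitotic HSF1 after heat only and 13 without heat only. In the IgG-free regions the counts were 3 higher and 1 lower of 14 for HSF2, and 1 higher and 1 lower of 6 for HSF1.

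Of the 3 other HSF2 lists, 348 basal regions were in none (65.3%) and 34 in all 3 (6.38%). Among the peaks removed for an IgG overlap, 12.9% were in none and 29.8% in all 3. Presence in all 3 lists was thus more common among the removed peaks than among the basal peaks. Of the basal regions, 47 were in the non-treated mitotic list only and 36 in both mitotic lists only. Another 30 were in the heat-treated cycling list only and 16 in the heat-treated mitotic list only. The 34 in all HSF2 lists mixed distinct kinds of region. The chr2:198364246-198365320 region had HSF2 at 7.19 CPM in heat-treated cycling, 2.23 CPM in non-treated cycling, 1.98 CPM in heat-treated mitotic and 1.89 CPM in non-treated mitotic cells, and its HSF1 levels were 9.62 CPM in heat-treated cycling, 1.38 CPM in non-treated cycling, 9.48 CPM in heat-treated mitotic and 1.95 CPM in non-treated mitotic cells. At chr11:122932409-122933542, HSF2 had 5.75 CPM in heat-treated cycling and 2.69 CPM in non-treated cycling cells, and 2.40 CPM in heat-treated mitotic and 2.57 CPM in non-treated mitotic cells. HSF1 at that region had 7.77 CPM in heat-treated cycling and 0.969 CPM in non-treated cycling cells, and 3.52 CPM in heat-treated mitotic and 2.43 CPM in non-treated mitotic cells. Neither region had an IgG peak. Both factors were thus highest in heat-treated cycling cells at these regions, and heat-treated mitotic HSF1 on chromosome 2 came near its cycling level.

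At chr22:41252279-41253240, HSF2 had 4.78 CPM in heat-treated cycling and 2.20 CPM in non-treated cycling cells, and 0.989 CPM in heat-treated mitotic and 1.15 CPM in non-treated mitotic cells. HSF1 was listed there after heat only, at 4.36 CPM in cycling and 4.47 CPM in mitotic cells. At chr15:74681447-74682389, HSF2 had 4.36 CPM in heat-treated cycling and 1.01 CPM in non-treated cycling cells, and 1.27 CPM in heat-treated mitotic and 1.15 CPM in non-treated mitotic cells. HSF1 after heat had 5.56 CPM in cycling and 1.22 CPM in mitotic cells. At chr14:23387924-23388841, HSF2 had 3.54 CPM in heat-treated cycling and 1.15 CPM in non-treated cycling cells, and 0.883 CPM in heat-treated mitotic and 0.947 CPM in non-treated mitotic cells. HSF1 after heat had 4.06 CPM in cycling and 1.35 CPM in mitotic cells. These 3 IgG-free regions shared an HSF1 peak in both heat-treated libraries and in neither non-treated one.

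Other regions among the 34 also had their highest HSF2 level in heat-treated cycling cells. At chr9:33024878-33025651, HSF2 had 3.39 CPM in heat-treated cycling and 0.907 CPM in non-treated cycling cells, and HSF1 had 3.76 CPM after heat in cycling cells with no listed peak without heat. At chr1:111505542-111506368, HSF2 had 3.49 CPM in heat-treated cycling and 1.12 CPM in non-treated cycling cells, but no mitotic HSF1 peak was listed in either treatment, and IgG of heat-treated mitotic cells had 1.56 CPM, with mitotic HSF2 after heat at 0.883 CPM. At chr17:71470183-71470788, a peak of 19 basal tags, HSF2 had 1.28 CPM in heat-treated cycling and 0.663 CPM in non-treated cycling cells (ratio 1.94, 1.02 to 3.72). The lower bound of the counting interval at this last region came close to 1.

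Further regions of the 34 carried IgG peaks, some of them at a level near that of HSF2. The region with the most tags of all basal peaks was chr5:9837-12207, at the start of the chromosome, with 1664 tags and a fold of 2.25. HSF2 there had 111.7 CPM in heat-treated cycling, 58.0 CPM in non-treated cycling, 49.6 CPM in heat-treated mitotic and 97.8 CPM in non-treated mitotic cells, and IgG had 73.9 CPM in heat-treated cycling, 47.3 CPM in heat-treated mitotic and 74.0 CPM in non-treated mitotic cells. At chr7:9834-10545, also near a chromosome start, HSF2 ran from 2.37 to 4.88 CPM over the 4 conditions and IgG from 2.22 to 3.39 CPM over its 3 lists. At chr12:94946-95901, HSF2 ran from 4.42 to 9.96 CPM and IgG from 4.45 to 7.21 CPM. The ranges of HSF2 and IgG overlapped at all 3. At chr7:1311416-1312900 HSF2 ran from 3.52 to 4.13 CPM and IgG from 3.61 to 5.32 CPM. At chr16:908021-909182, HSF2 had 0.976 CPM in heat-treated cycling and 1.53 CPM in non-treated cycling cells, against 2.26 CPM in heat-treated mitotic and 3.04 CPM in non-treated mitotic cells, so that its mitotic levels were the higher ones. The only IgG peak there was that of heat-treated cycling cells, at 0.892 CPM. A similar order of HSF2 levels held at chr7:55811669-55812518. HSF2 had 0.719 CPM in heat-treated cycling and 0.907 CPM in non-treated cycling cells. It had 2.40 CPM in heat-treated mitotic and 2.91 CPM in non-treated mitotic cells. IgG of heat-treated mitotic cells had 11.8 CPM there over 3993 bp of peak, against 1218 bp for HSF2. Per kb of peak the levels in those cells were 2.97 CPM for IgG and 1.97 CPM for HSF2. In all 10 other lists there were 5 basal peaks, including those on chromosomes 5, 7 at 1311416 and 12.

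The basal peaks were unevenly spread over chromosomes. Chromosome 7 held 71 of the 533 (of 87 peaks in the whole list), chromosome 1 held 64 of 103 and chromosome 22 held 43 of 143. A stretch of chromosome 22 from 16000000 to 22000000, chosen after its values were seen, held 38 of the 533 and 133 of the 875. Its 38 regions had a median length of 2720 bp, 3.71 CPM and a fold of 2.58, against 755 bp, 0.872 CPM and 4.27 for the other 495. HSF2 was higher after heat at 0 of the 38 and at 42 of the 495, and lower at 5 of the 38 and 10 of the 495. An IgG peak of heat-treated mitotic cells overlapped 20 of the 38 (52.6%) and 112 of the 495 (22.6%).

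The HSF1 peaks of non-treated cycling cells, chosen by the same rule, gave 3754 regions. Of the 533 basal HSF2 peaks, 16.1% had an HSF2 peak after heat in cycling cells, against 6.26% (5.53 to 7.08%) of the 3754 basal HSF1 peaks. For an HSF1 peak after heat in cycling cells the shares were 19.5% of the basal HSF2 peaks and 8.98% (8.10 to 9.93%) of the basal HSF1 peaks. For IgG of heat-treated cycling cells they were 13.7% of the basal HSF2 peaks and 9.99% (9.07 to 11.0%) of the basal HSF1 peaks. The HSF1 list came from a library of 14446547 kept tags, and the difference in depth was not adjusted for.

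Seen from the heat-treated side, 3767 HSF2 peaks of heat-treated cycling cells overlapped no non-treated cycling IgG peak, and 100 of them (2.65%, 2.19 to 3.22%) had a peak in the non-treated cycling HSF2 list. Most of these 3767 peaks therefore had no peak in the whole non-treated cycling HSF2 list, and most basal peaks had no HSF2 peak after heat in cycling cells.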

How the data were processed

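Peaks of 12 antibody libraries in 12 groups were used; the 2 input libraries entered only as controls of the deposited lists. The submitters' processing notes name Bowtie, hg19 and MACS 1.4. The authors ran MACS 1.4.1 at a p-value cutoff of 1e-05 and a fragment size of 200 bp against the input of the same cell state, per the file headers. Alignment names with bwa stand in 5 lists of cycling cells, per the file headers, which differs from the notes. Per the file headers, tags in a peak are counts, the score is minus 10 times log10 of the p-value, the fold is the ratio of tags in the immunoprecipitate over those the input predicts, and the false discovery rate is a percent; all 4 are the authors' values. Peaks were called per library.

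The non-treated cycling IgG list names chromosomes by accession, and these were converted to 1 to 22, X and Y. Overlap was at least 1 bp, and counts of overlaps equalled those of bedtools 2.31.1 in 11 of 11 lists. Tags of all partner peaks of a region were summed and scaled to 1000000 kept tags (CPM). A ratio of at least 1.5 was called higher and of at most 0.667 lower. Shares have Wilson 95% intervals and ratios exact conditional binomial ones, for counting error only. The overlap and ratio steps were tested on simulated data (Python 3.11.15, pandas 2.3.3, scipy 1.17.1).

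Named sites are the 10 highest folds, the 10 highest and 5 lowest HSF2 ratios after heat, the 5 highest HSF1 levels after heat, the regions in all HSF2 lists, the 5 highest folds in no other list, and 3 regions on each side of the rule; regions outside these are marked in the text as picked with their values known. The regions, lists and rules were chosen with earlier results of these data known. The chromosome 22 stretch and the comparison with the smallest listed peak were added after the data were seen. A search for the heat shock element and gene lists were planned and are not analysed here, as no hg19 genome or annotation was used.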

Additional observations from a re-analysis of the deposited data

How the results depend on the processing

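No paired analysis was possible because each group has 1 library, and no library could be left out for the same reason. The number of basal peaks was 533, and it was 460 without overlaps of heat-treated cycling IgG as well, 370 without those of all 4 IgG lists, 695 when only a 50% reciprocal overlap with IgG removed a peak, and 875 with no removal.

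Of the shares with a partner peak in 10 lists, 82 values under the alternatives fell outside the counting interval of the reported share and 5 stayed within it. With 50% reciprocal overlap, HSF2 shares were 12.8% (heat-treated cycling), 13.7% (heat-treated mitotic) and 14.6% (non-treated mitotic), and HSF1 shares 15% (heat-treated cycling), 11.6% (non-treated cycling), 10.9% (heat-treated mitotic) and 5.25% (non-treated mitotic). With summits within 250 bp, HSF2 shares were 11.8% (heat-treated cycling), 11.3% (heat-treated mitotic) and 14.4% (non-treated mitotic), and HSF1 shares 14.3% (heat-treated cycling), 10.1% (non-treated cycling), 11.6% (heat-treated mitotic) and 7.32% (non-treated mitotic). Among the 117 basal peaks with a fold of at least 5, HSF2 shares were 32.5% (heat-treated cycling), 30.8% (heat-treated mitotic) and 29.9% (non-treated mitotic), and HSF1 shares 30.8% (heat-treated cycling), 17.9% (non-treated cycling), 27.4% (heat-treated mitotic) and 12.8% (non-treated mitotic). Among the 5 with a fold of at least 10, HSF2 shares were 60% (heat-treated cycling), 60% (heat-treated mitotic) and 100% (non-treated mitotic), and HSF1 shares 60% (heat-treated cycling), 40% (non-treated cycling), 60% (heat-treated mitotic) and 40% (non-treated mitotic). With partner peaks of a fold of at least 5, HSF2 shares were 8.26% (heat-treated cycling), 5.25% (heat-treated mitotic) and 1.13% (non-treated mitotic), and HSF1 shares 6.94% (heat-treated cycling), 0.375% (non-treated cycling), 1.88% (heat-treated mitotic) and 0.188% (non-treated mitotic). With partner peaks of a score of at least 100, HSF2 shares were 9.38% (heat-treated cycling), 8.07% (heat-treated mitotic) and 16.3% (non-treated mitotic), and HSF1 shares 10.7% (heat-treated cycling), 7.13% (non-treated cycling), 15.6% (heat-treated mitotic) and 9.38% (non-treated mitotic). With every partner list cut to its 875 highest scores, HSF2 shares were 8.82% (heat-treated cycling), 7.88% (heat-treated mitotic) and 6.19% (non-treated mitotic), and HSF1 shares 7.5% (heat-treated cycling), 6.38% (non-treated cycling), 6.94% (heat-treated mitotic) and 3.38% (non-treated mitotic). With no IgG removal, HSF2 shares were 29.7% (heat-treated cycling), 33.4% (heat-treated mitotic) and 44.8% (non-treated mitotic), and HSF1 shares 34.9% (heat-treated cycling), 39% (non-treated cycling), 39.8% (heat-treated mitotic) and 36.1% (non-treated mitotic). In the 370 regions free of all 4 IgG lists, HSF2 shares were 10.8% (heat-treated cycling), 7.3% (heat-treated mitotic) and 10.3% (non-treated mitotic), and HSF1 shares 11.6% (heat-treated cycling), 7.03% (non-treated cycling), 8.11% (heat-treated mitotic) and 2.97% (non-treated mitotic). The cause of these differences was not tested.

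Counts of higher and lower regions moved by over 1.5 times in 52 of 114 values. For HSF2 in heat-treated over non-treated cycling cells, 42 regions were higher and 15 lower, and these counts were 39 and 0 per kb of peak, 31 and 4 with a ratio of 2 or 0.5, 40 and 3 with summits within 250 bp and 25 and 5 in the 370 IgG-free regions. For HSF2 in mitotic over cycling non-treated cells, 32 regions were higher and 21 lower, and these counts were 18 and 34 per 1000000 total tags, 26 and 1 per kb of peak, 17 and 8 with a ratio of 2 or 0.5, 20 and 10 with summits within 250 bp and 4 and 10 in the 370 IgG-free regions. For HSF2 in mitotic over cycling heat-treated cells, 8 regions were higher and 25 lower, and these counts were 0 and 27 per kb of peak, 2 and 24 with summits within 250 bp and 2 and 13 in the 370 IgG-free regions. For HSF2 in heat-treated over non-treated mitotic cells, 17 regions were higher and 10 lower, and these counts were 0 and 13 per kb of peak, 13 and 4 with a ratio of 2 or 0.5, 5 and 5 with summits within 250 bp and 3 and 1 in the 370 IgG-free regions. For HSF1 in heat-treated over non-treated cycling cells, 15 regions were higher and 5 lower, and these counts were 9 and 3 per kb of peak, 12 and 1 with a ratio of 2 or 0.5 and 4 and 0 in the 370 IgG-free regions. For HSF1 in mitotic over cycling non-treated cells, 7 regions were higher and 13 lower, and these counts were 4 and 21 per 1000000 total tags, 8 and 1 per kb of peak, 7 and 8 where the counting interval excluded 1, 5 and 6 with a ratio of 2 or 0.5, 3 and 4 with summits within 250 bp and 1 and 1 in the 370 IgG-free regions. For HSF1 in mitotic over cycling heat-treated cells, 13 regions were higher and 24 lower, and these counts were 6 and 35 per 1000000 total tags, 13 and 13 per kb of peak, 6 and 10 with a ratio of 2 or 0.5, 4 and 19 with summits within 250 bp and 0 and 15 in the 370 IgG-free regions. For HSF1 in heat-treated over non-treated mitotic cells, 19 regions were higher and 3 lower, and these counts were 6 and 2 per kb of peak, 11 and 1 with a ratio of 2 or 0.5, 6 and 0 with summits within 250 bp and 1 and 1 in the 370 IgG-free regions. Without the chromosome 22 stretch, 42 and 10 regions were higher and lower for HSF2 after heat in cycling cells. At 9 named regions the HSF2 ratio after heat, below 0.667 as CPM, was above 1 per kb of peak, at 1.04, 1.04, 1.07, 1.15, 1.4, 1.12, 1.03, 1.2 and 1.22, since the heat-treated peaks were narrower there. Regions listed in few tags, and lists with few kept tags, limit every count above.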
